A study of Mus musculus with 15 samples.

Results

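The melanocyte pigment genes described here were a set of 10 named genes (Tyr, Tyrp1, Dct, Pmel, Mlana, Oca2, Slc45a2, Mitf, Slc24a5 and Gpr143), chosen by name out of 18929 genes in the table. All 10 were found in the table and all 10 passed the filter on low counts, which kept 15369 genes for testing. Bulk mRNA sequencing was performed on skin of male wild-type balb/c mice, which were 4 to 6 weeks old at wounding and older by the healing time when the skin was taken. Full-thickness wounds of 10 mm or 15 mm were made on the back and filled with printed Matrigel beads. The acellular groups received beads without cells. In the Matrigel HDB-MSCs groups, 56 beads (10 mm) or 120 beads (15 mm) carried human umbilical cord mesenchymal stem cells at high density, 84000 or 180000 cells in all, and acellular beads filled the rest. Unwounded normal skin was the fifth group. Each of the 5 groups held 3 samples, 15 in all. The methods give tissue collection after 4 weeks, while the wound experiment is described as ending on day 21. No label says whether the 3 samples of a group came from separate animals, so p-values measure the spread between these samples, which may be technical.

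Melanin is made in melanosomes, organelles of melanocytes, which in mouse skin of the trunk sit mainly in the hair follicles and hand pigment to the growing hair. Tyrosinase (Tyr) starts the synthesis from tyrosine, and dopachrome tautomerase (Dct) and Tyrp1 act on later intermediates. Pmel forms the fibrils on which melanin is laid down, Mlana is a melanosomal membrane protein, Oca2, Slc45a2 and Slc24a5 are membrane transport proteins needed for melanosome pH and ion balance, and Gpr143 is a melanosomal receptor. Mitf is the transcription factor that drives this programme, and it is also transcribed in other cells such as mast cells. Balb/c is an albino strain whose tyrosinase protein is inactive, so the strain makes melanocytes and their transcripts but no melanin. The Tyr values below are mRNA levels.

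Start-site windows were held in RefSeq's table for 6 of the 10 genes (Tyr, Tyrp1, Dct, Oca2, Slc24a5 and 3 starts of Mitf), 8 windows in all, build GRCm38.p6. They come from the mouse reference genome, which is not a balb/c genome. They are shown because the pigment genes are textbook targets of Mitf, which binds E-boxes with the letters CATGTG, most often with a T in front (TCATGTG). Both strands of the 250 bases before each start were searched, and CATGTG matches include the TCATGTG matches. CATGTG stood in 5 of the 8 windows, against 12.3% of all 32817 windows of this length, and TCATGTG in 4 of the 8, against 3.25%. The palindromic CACGTG stood in none of the 8, against 6.02% of all windows. The 30 bases around the match nearest the start are given below in the direction of the gene, with the match in capitals (CACATG is CATGTG read on the other strand). The Tyr window is chr7:87493516-87493545 (minus strand), Tyrp1 chr4:80834155-80834184 (plus), Dct chr14:118052379-118052408 (minus), Slc24a5 chr2:125068097-125068126 (plus) and Oca2 chr7:56239561-56239590 (plus).
Tyr: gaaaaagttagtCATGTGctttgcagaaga
Tyrp1: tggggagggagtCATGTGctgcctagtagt
Dct: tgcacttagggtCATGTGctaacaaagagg
Slc24a5: ggaggaaggagactgctCACATGattcagc
Oca2: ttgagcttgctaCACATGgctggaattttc
In Tyr, Tyrp1 and Dct the match lay on the gene's own strand, 21, 46 and 150 bases before the start, and each read TCATGTG. In Slc24a5 it lay on the opposite strand, 13 bases before the start. The Oca2 match, 186 bases before the start, lacked the T. All 30 bases shown for Tyrp1, and 3 of those shown for Slc24a5, lie in annotated exon sequence.

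The 250 bases before the starts of Tyr (chr7:87493513-87493762, minus strand) and Dct (chr14:118052247-118052496, minus strand) follow whole, with E-box matches in capitals, because these 2 genes are the rate-limiting enzyme of the pathway and the pigment transcript with the highest mean level over the 15 samples. The same length is shown for the third Mitf start (chr6:97991533-97991782, plus strand), which lies inside the gene and has no annotated exon in its window. Its capitals mark TGACGTCA, the cAMP response element, found in 1 of the 8 windows and in 1.55% of all windows.
Tyr: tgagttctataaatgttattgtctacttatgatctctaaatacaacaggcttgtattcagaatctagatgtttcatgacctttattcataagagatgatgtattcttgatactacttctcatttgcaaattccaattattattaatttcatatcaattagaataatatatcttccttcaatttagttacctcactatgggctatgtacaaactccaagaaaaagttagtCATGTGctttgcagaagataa
Dct: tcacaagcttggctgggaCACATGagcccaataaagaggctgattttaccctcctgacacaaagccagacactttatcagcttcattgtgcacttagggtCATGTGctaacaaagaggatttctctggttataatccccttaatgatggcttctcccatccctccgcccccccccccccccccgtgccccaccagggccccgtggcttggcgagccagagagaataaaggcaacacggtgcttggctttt
Mitf: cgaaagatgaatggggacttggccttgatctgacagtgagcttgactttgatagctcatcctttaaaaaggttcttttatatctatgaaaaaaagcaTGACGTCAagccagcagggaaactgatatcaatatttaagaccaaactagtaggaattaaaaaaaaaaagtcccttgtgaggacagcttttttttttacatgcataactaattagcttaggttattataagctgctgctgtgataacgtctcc
Dct held a further match on the opposite strand, 232 bases before its start. A match describes the letters in these windows, and no binding was measured.

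Total counts per sample ranged from 15840542 to 18404177, so depth differed little. Epidermal and dermal markers of skin (Krt5, Krt14, Krt10, Col1a1, Col3a1, Pdgfra) were present in every sample, summing to between 7083 and 21750 CPM (counts per 1000000 counts of the sample, scaled by TMM normalization throughout). The sample that stood apart was replicate 1 of the acellular 15 mm group. The summed level of the 10 pigment genes was 2741 CPM there, and 113.8 and 220.0 CPM in the other 2 samples of that group. It lay between 231 and 336.9 CPM in the acellular 10 mm group, between 175 and 361 CPM in the Matrigel HDB-MSCs 10 mm group, between 160.0 and 221 CPM in the Matrigel HDB-MSCs 15 mm group, and between 75.3 and 131.6 CPM in normal skin. Tests that rest on acellular 15 mm replicate 1 are therefore given with and without it. That sample also had the lowest of the 15 sums of the skin markers (7083 CPM). In bulk tissue, fewer melanocytes and less pigment-gene mRNA per melanocyte cannot be told apart.

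**Figure D1:**
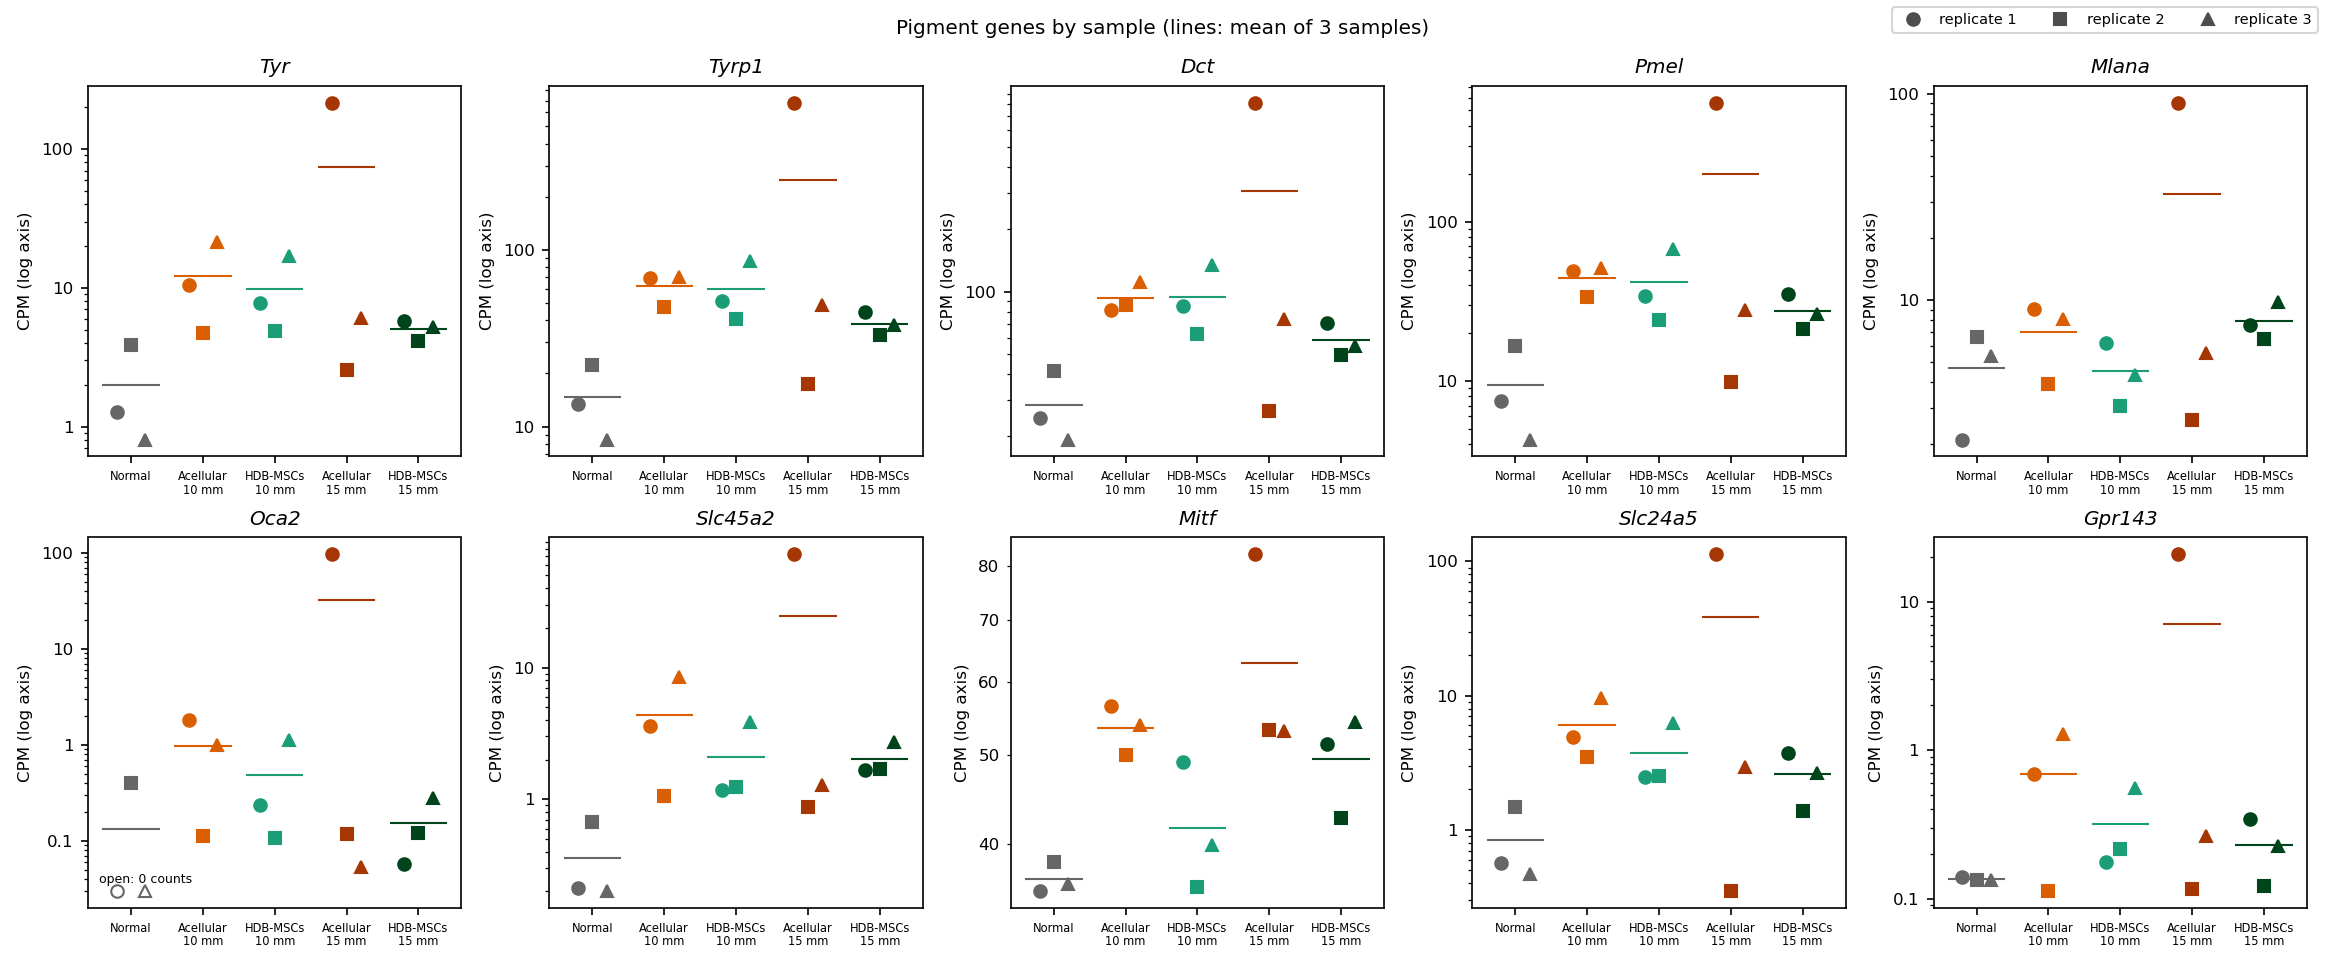
CPM of each of the 10 pigment genes (y, log axis) in the 5 groups (x), with 1 point per sample shaped by replicate number a line at the mean of the 3 samples, and open symbols for 0 counts. Acellular 15 mm replicate 1 is the highest point in all 10 panels (82.4 CPM for Mitf, 814 CPM for Dct), and the normal samples lie below most wound samples in the panels of Tyr, Tyrp1, Dct, Pmel, Slc45a2 and Mitf.

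The 3 melanogenic enzymes varied together from sample to sample. Tyr stood at 10.5, 4.72 and 21.2 CPM in replicates 1, 2 and 3 of the acellular 10 mm group, 7.75, 4.90 and 16.8 CPM in the HDB-MSCs 10 mm group, 215, 2.57 and 6.05 CPM in the acellular 15 mm group, 5.77, 4.12 and 5.25 CPM in the HDB-MSCs 15 mm group and 1.27, 3.88 and 0.805 CPM in normal skin. Its level in acellular 15 mm replicate 1 was 10.1 times the next highest sample, and the other 2 samples of that group lay within the range of the remaining wounds or below it. Tyrp1 measured 69.8, 47.7 and 70.7 CPM (acellular 10 mm), 51.7, 40.8 and 87.1 CPM (HDB-MSCs 10 mm), 680.1, 17.5 and 48.7 CPM (acellular 15 mm), 44.3, 32.9 and 37.55 CPM (HDB-MSCs 15 mm) and 13.35, 22.3 and 8.45 CPM (normal). Dct, the highest of the 10 by the mean over all 15 samples though below Mitf in normal samples 1 and 3 and in acellular 15 mm replicate 2, measured 81.2, 86.3 and 111.6 CPM in the acellular 10 mm group, 84.8, 62.4 and 134.3 CPM in the HDB-MSCs 10 mm group, 814, 26.5 and 74.1 CPM in the acellular 15 mm group, 70.7, 49.3 and 54.8 CPM in the HDB-MSCs 15 mm group and 24.6, 41.2 and 19.3 CPM in normal skin. For each enzyme 11 of the 12 wound samples exceeded every normal sample, and the exception was acellular 15 mm replicate 2. At least 11 of the 12 wounds lay above every normal sample for 16.9% of all genes tested. Among the 11 wound samples other than the high one, the mean level was 4.11 times the normal mean for Tyr, 3.39 times for Tyrp1 and 2.68 times for Dct. Across those 11 samples the highest and lowest values differed 8.27-fold for Tyr, 4.975-fold for Tyrp1 and 5.07-fold for Dct.

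Of the structural proteins, Pmel followed the enzymes. Mlana did so in acellular 15 mm replicate 1, at 9.26 times the next highest sample, but less in the other samples. Pmel stood at 49.1, 33.6 and 50.9 CPM in the acellular 10 mm group, 34.0, 24.05 and 67.1 CPM in the HDB-MSCs 10 mm group, 557, 9.92 and 28.04 CPM in the acellular 15 mm group, 35.4, 21.2 and 26.2 CPM in the HDB-MSCs 15 mm group and 7.52, 16.7 and 4.29 CPM in normal skin. It too exceeded every normal sample in 11 of 12 wounds, with a mean over the 11 lower wounds of 3.63 times the normal mean. Mlana measured 9.02, 3.93 and 8.07 CPM (acellular 10 mm), 6.215, 3.07 and 4.33 CPM (HDB-MSCs 10 mm), 90.5, 2.63 and 5.52 CPM (acellular 15 mm), 7.60, 6.49 and 9.77 CPM (HDB-MSCs 15 mm) and 2.11, 6.63 and 5.37 CPM (normal). Only 5 of the 12 wound samples exceeded every normal sample for Mlana, and the mean of the 11 lower wounds was 1.29 times the normal mean. The second highest Mlana value lay in the HDB-MSCs 15 mm group, whereas that of Tyrp1, Dct and Pmel lay in HDB-MSCs 10 mm replicate 3.

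The transport proteins and the receptor were scarcer. Slc45a2 was the one pigment gene for which all 12 wound samples exceeded every normal sample, at 3.60, 1.07 and 8.53 CPM (acellular 10 mm), 1.18, 1.24 and 3.89 CPM (HDB-MSCs 10 mm), 72.3, 0.875 and 1.27 CPM (acellular 15 mm), 1.66, 1.70 and 2.71 CPM (HDB-MSCs 15 mm) and 0.211, 0.670 and 0.201 CPM (normal). That separation was shown by 9.86% of all genes tested, and the normal values rest on 3, 10 and 3 counts. Slc24a5 measured 4.91, 3.48 and 9.645 CPM in the acellular 10 mm group, 2.49, 2.53 and 6.22 CPM in the HDB-MSCs 10 mm group, 112.8, 0.350 and 2.92 CPM in the acellular 15 mm group, 3.77, 1.39 and 2.65 CPM in the HDB-MSCs 15 mm group and 0.562, 1.47 and 0.4695 CPM in normal skin. It exceeded every normal sample in 10 of 12 wounds, and was below all 3 normal samples in acellular 15 mm replicate 2. Oca2 was close to the limit of detection outside the high sample. Its counts were 32, 2 and 17 (acellular 10 mm), 4, 2 and 20 (HDB-MSCs 10 mm), 1695, 2 and 1 (acellular 15 mm), 1, 2 and 5 (HDB-MSCs 15 mm) and 0, 6 and 0 (normal). The counts of 0 allow levels of up to 0.211 and 0.201 CPM (3 counts in each library, counting error only). Oca2 in acellular 15 mm replicate 1, at 96.1 CPM, was 52.6 times the next highest sample, the widest gap of the 10 genes. Gpr143 had counts of 12, 2 and 22 (acellular 10 mm), 3, 4 and 10 (HDB-MSCs 10 mm), 367, 2 and 5 (acellular 15 mm), 6, 2 and 4 (HDB-MSCs 15 mm) and 2 in each normal sample. Both genes carry too few counts in most samples for their ratios to be read closely.

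Mitf varied least. It stood at 56.5, 50.04 and 53.9 CPM in the acellular 10 mm group (mean 53.5 ± 3.26, SD, n = 3), 49.1, 35.9 and 39.9 CPM in the HDB-MSCs 10 mm group (41.7 ± 6.76), 82.4, 53.2 and 53.1 CPM in the acellular 15 mm group (62.9 ± 16.9), 51.4, 42.7 and 54.2 CPM in the HDB-MSCs 15 mm group (49.4 ± 6.02) and 35.6, 38.3 and 36.3 CPM in normal skin (36.7 ± 1.39). Normal samples lay within a narrow band below 11 of the 12 wounds, and HDB-MSCs 10 mm replicate 2 fell inside that band. In the sample with the extreme pigment levels Mitf was 1.46 times the next highest sample, against 6.06 times for Dct.

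Wounded skin was compared with normal skin to ask whether the pigment programme differs in the repaired tissue. These 4 comparisons share the same 3 normal samples, and p-values are edgeR quasi-likelihood tests with Benjamini-Hochberg adjustment over all genes tested. In the acellular 10 mm group all 10 genes had a positive log2 fold change, and 1, Mitf, passed (0.54 ± 0.17, SE, adjusted p = 0.0448), where 9.77% of all genes were called higher. That call was lost when any of the 6 samples compared was left out, with 0 called each time. In the acellular 15 mm group 9 of 10 were called higher, where 17.6% of all genes were, and Mlana missed the threshold (2.80 ± 1.01, adjusted p = 0.0527). Largest were Oca2 (7.81 ± 2.40, adjusted p = 0.0295), Slc45a2 (6.07 ± 1.63, adjusted p = 0.0172) and Gpr143 (5.62 ± 1.67, adjusted p = 0.0261), whose sizes rest on very few normal counts. Without normal replicate 1 or normal replicate 3 the count in this group was 1 of 10 (9.53% and 8.12% of all genes called higher), and a fit of these 2 groups alone called 0 (2.91%). Tyr rose by 5.22 ± 1.44 (adjusted p = 0.0193), Dct by 3.43 ± 0.94 (adjusted p = 0.0188) and Mitf by 0.78 ± 0.17 (adjusted p = 0.00902) on the log2 scale. None of the 10 passed in the HDB-MSCs 10 mm group (6.1% of all genes called higher; none of the 10, and 15.54% of all genes, higher at an unadjusted p under 0.05) or in the HDB-MSCs 15 mm group (2.67% of all genes called; 1 of the 10, Mitf, and 13.7% of all genes, higher at an unadjusted p under 0.05). Median log2 fold changes over the 10 genes were 2.26, 4.80, 1.91 and 1.19 in the order acellular 10 mm, acellular 15 mm, HDB-MSCs 10 mm and HDB-MSCs 15 mm, with medians over all genes tested of 0.03, 0.06, 0.02 and 0.02.

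Acellular 15 mm replicate 1 enters the spread that all groups share in the fit, and leaving it out changed these counts in both directions. In the acellular 15 mm group 1 of 10 then passed (Mitf, 0.53 ± 0.13, adjusted p = 0.0176; 13.1% of all genes called higher), Tyr fell from a call to 1.12 ± 0.75 (adjusted p = 0.291), and Mlana and Oca2 had negative log2 fold changes of -0.21 and -0.65. In the acellular 10 mm group 8 of 10 passed (19.4% of all genes), among them Tyrp1 (2.09 ± 0.43, adjusted p = 0.00554), Dct (1.72 ± 0.40, adjusted p = 0.00912) and Slc45a2 (3.58 ± 0.81, adjusted p = 0.00798), while Mlana and Oca2 did not. In the HDB-MSCs 10 mm group 5 of 10 passed (14.1% of all genes), namely Tyrp1 (2.02 ± 0.43, adjusted p = 0.00966), Dct, Pmel, Tyr and Slc45a2. In the HDB-MSCs 15 mm group 2 of 10 passed (8.85% of all genes), Mitf (0.43 ± 0.12, adjusted p = 0.0362) and Tyrp1 (1.38 ± 0.43, adjusted p = 0.0488).

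The mean of the 4 wound groups against normal skin, a contrast added after the data were seen, called Mitf alone with all 15 samples (0.48 ± 0.14, adjusted p = 0.0237; 14.2% of all genes called higher) and 7 of 10 without acellular 15 mm replicate 1 (20.1% of all genes). Those 7 were Tyr (1.84 ± 0.61, adjusted p = 0.0326), Tyrp1 (1.67 ± 0.37, adjusted p = 0.00627), Dct (1.33 ± 0.34, adjusted p = 0.0117), Pmel (1.73 ± 0.47, adjusted p = 0.0146), Slc45a2 (2.53 ± 0.72, adjusted p = 0.0181), Slc24a5 (1.90 ± 0.67, adjusted p = 0.0411) and Mitf (0.42 ± 0.10, adjusted p = 0.0076). The count was 7 without replicate 2 (14.2% of all genes) and 6 without replicate 3 (18.0%) of the acellular 15 mm group, and 0 when any 1 of the 3 normal samples was left out. Exact two-sided permutation tests of single genes over the same 14 samples (364 arrangements) gave unadjusted p = 0.0027 for Slc45a2, the smallest they can give, 0.0055 for Tyrp1, Dct and Pmel, 0.0082 for Tyr and Mitf, 0.0247 for Slc24a5 and 0.39 for Mlana. Over all 15 samples (455 arrangements) the same exact tests gave 0.0286 for Slc45a2, 0.0198 for Tyrp1 and Pmel, 0.0462 for Dct, 0.044 for Tyr, 0.0264 for Mitf, 0.0835 for Slc24a5 and 0.343 for Mlana. For Oca2 and Gpr143 these exact tests gave 0.242 and 0.159 over 14 samples, and 0.299 and 0.248 over 15. By ranges, the 3 wound samples lay above all 3 normal samples for 7 of 10 genes in the acellular 10 mm group (29.1% of all genes), 2 in the acellular 15 mm group (Slc45a2 and Mitf; 22.5%), 7 in the HDB-MSCs 10 mm group (25.7%) and 6 in the HDB-MSCs 15 mm group (23.8%).

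**Figure D2:**
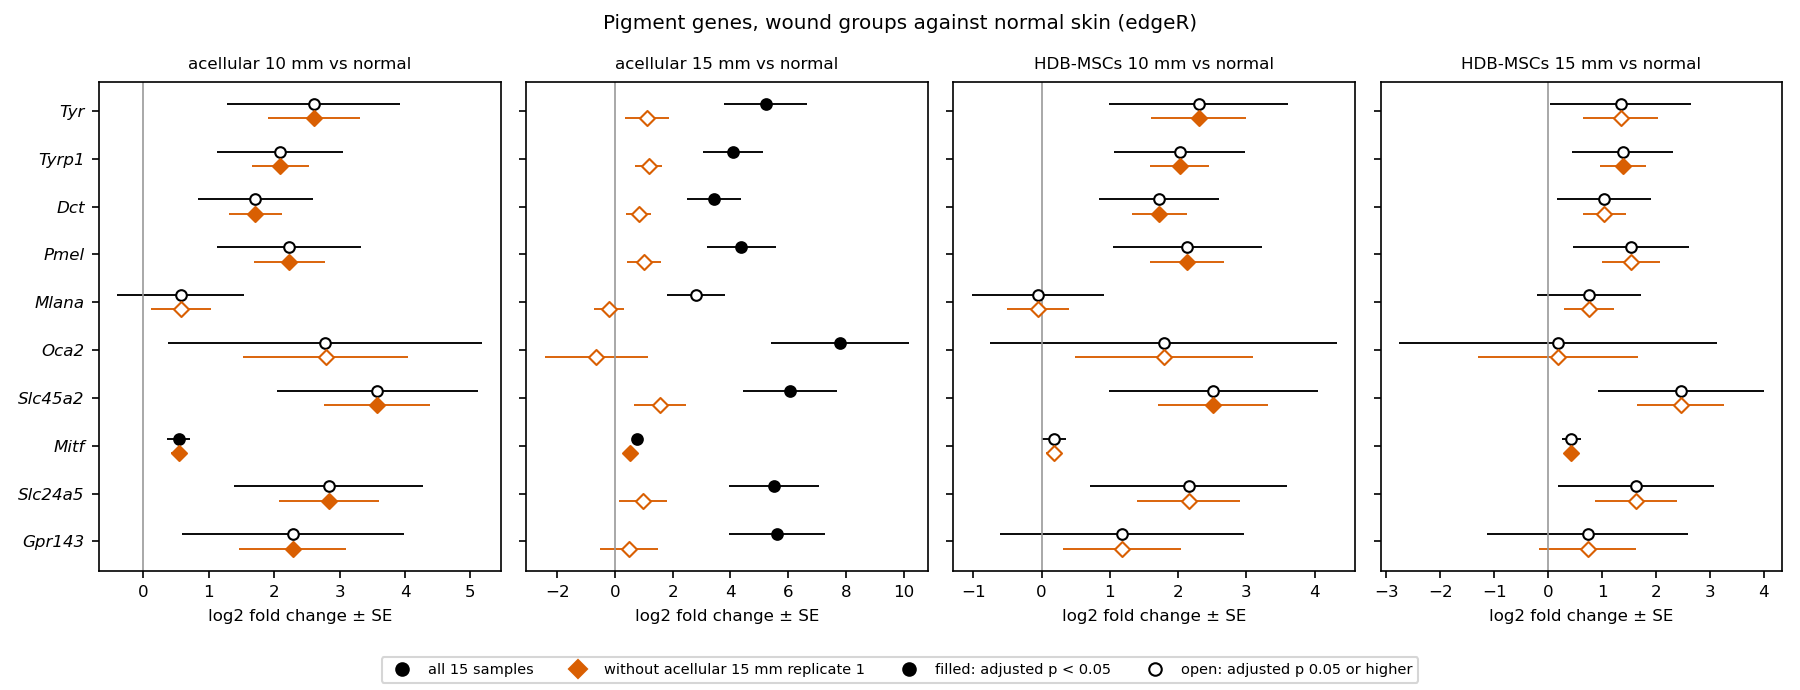
Log2 fold change ± SE (x) of the 10 pigment genes (y) in each wound group against normal skin, from all 15 samples (black circles) and without acellular 15 mm replicate 1 (orange diamonds), with filled symbols for an adjusted p under 0.05. In the acellular 15 mm panel the black symbols lie between 0.78 and 7.81 and the orange ones between -0.65 and 1.55, and in the other panels both sets share their positions but the orange bars are shorter.

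The Matrigel HDB-MSCs groups were then compared with the acellular groups to ask whether stem cell-laden beads were accompanied by a different pigment programme. At 10 mm none of the 10 genes passed, and no gene in the table did (0% called; 543 of 15369 genes and none of the 10 at an unadjusted p under 0.05). Of the 10 log2 fold changes 9 were negative, with a median of -0.49. Dct differed by 0.01 on the log2 scale (95% interval -1.84 to 1.86) and Tyr by -0.31 (-2.90 to 2.29). Without acellular 15 mm replicate 1, which enters the shared spread, the intervals were -0.84 to 0.86 for Dct and -1.71 to 1.1 for Tyr. In that fit none of the 10 passed (0% called), and 1 of the 10, Mitf (-0.36 ± 0.12), was lower at an unadjusted p under 0.05, as were 583 of all genes. Mitf was the single pigment gene whose 3 HDB-MSCs samples all lay below the 3 acellular samples (-0.36 ± 0.17, adjusted p = 0.9999 in edgeR), a pattern shown in the lower direction by 6.47% of all genes.

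At 15 mm all 10 genes were lower in the HDB-MSCs group, with log2 fold changes from -0.35 (Mitf) to -7.63 (Oca2) and a median of -3.23. None passed in edgeR (2.93% of all genes called), nor with the replicate block (0.26% called higher and 0.904% lower), although 8 of 10 were lower at an unadjusted p under 0.05 (15.7% of all genes). DESeq2 called 7 lower, where it called 10.7% of all genes lower. Without replicate 2 of the acellular group edgeR called 6 lower (3.35% of all genes), and without replicate 3 it called 7 (11.6%). Tyr gave -3.88 ± 1.33 (adjusted p = 0.113) and Dct -2.39 ± 0.90 (adjusted p = 0.141). No gene of the 10 had ranges that did not overlap, where 11.7% of all genes lay wholly lower. Without acellular 15 mm replicate 1, 9 of the 10 turned to positive values of 0.21 to 0.96, and only Mitf remained lower (-0.10 ± 0.13), again with no call. Over both sizes none of the 10 passed (0% of all genes called; 6 of the 10, and 10.5% of all genes, lower at an unadjusted p under 0.05), and the interaction of treatment and size called none (0% of all genes; 1 of the 10, Oca2, and 8.2% of all genes, negative at an unadjusted p under 0.05). Without acellular 15 mm replicate 1, 1 of the 10 (Mitf, -0.23) was lower over both sizes at an unadjusted p under 0.05, as were 7.43% of all genes, and Tyr gave -0.04 where it had given -2.09. The Oca2 interaction turned from -6.64 to 1.82 (unadjusted p = 0.39 in edgeR), and 1 of the 10, Mlana (1.59), was positive at an unadjusted p under 0.05, as were 9.08% of all genes. Exact two-sided permutation tests over both sizes (400 arrangements within size) gave an unadjusted p of 0.025 for Mitf, with a mean log2 difference of -0.35, and between 0.31 and 0.69 for the other 9. The value for Mitf was 0.06 without acellular 15 mm replicate 1, 0.055 without HDB-MSCs 15 mm replicate 1 and 0.08 without HDB-MSCs 15 mm replicate 2. Within a size 20 arrangements allow no p below 0.1, which Mitf reached at 10 mm.

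**Figure D3:**
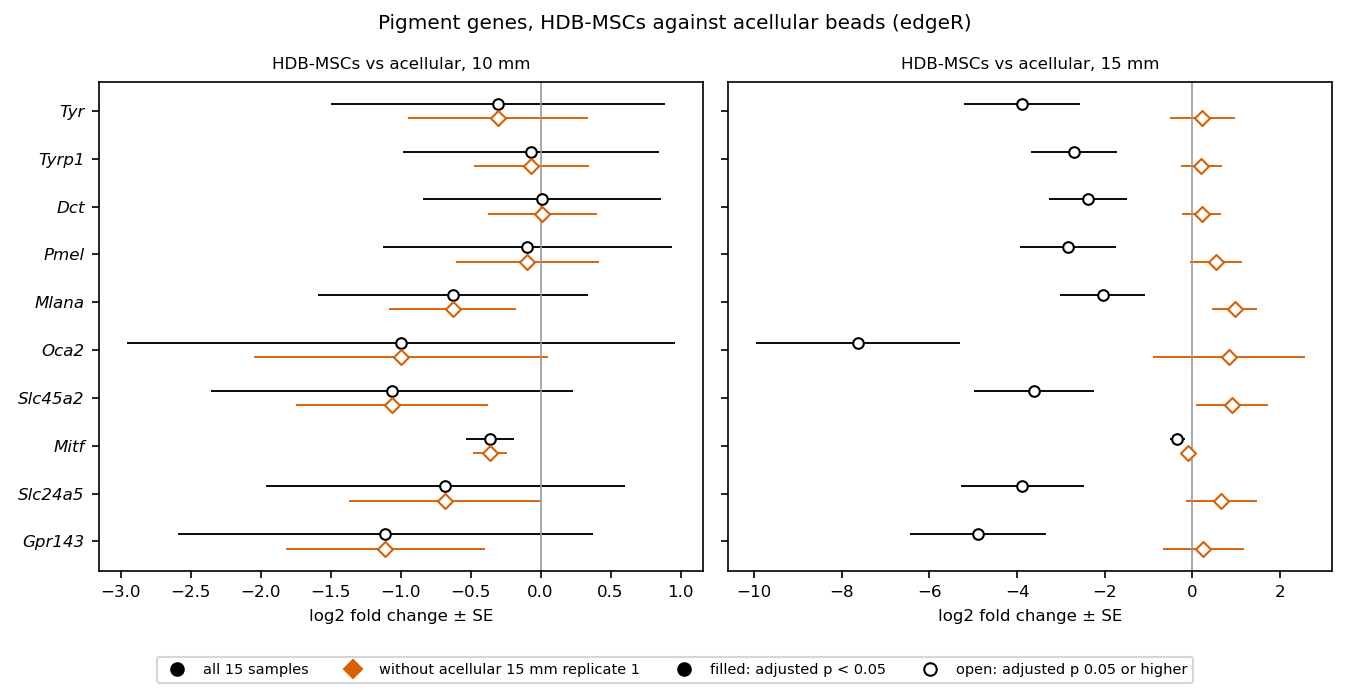
Log2 fold change ± SE (x) of the 10 pigment genes (y) in Matrigel HDB-MSCs against acellular samples in wounds of 10 mm (left) and 15 mm (right), from all 15 samples (black circles) and without acellular 15 mm replicate 1 (orange diamonds). No symbol is filled, and at 15 mm the black symbols lie at -0.35 to -7.63 while 9 of the 10 orange ones lie above 0.

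To compare the genes with each other, CPM was divided by transcript length in kilobases. Dct had the highest level per length in 11 of the 15 samples, at 8.77 to 370 CPM per kb over all samples, and Mitf had it in the other 4 (normal 1 and 3, acellular 15 mm replicate 2 and HDB-MSCs 15 mm replicate 3). Tyrp1 (3.16 to 255 CPM per kb) and Pmel (2.02 to 261 CPM per kb) lay close together and exchanged places between samples. Mlana lay below them in every sample but normal 3, where it was at rank 3. Tyr was at rank 7 in most samples, at 0.133 CPM per kb in normal 3 and 35.6 CPM per kb in acellular 15 mm replicate 1, far below Dct and Tyrp1. In acellular 15 mm replicate 1 Mitf was at rank 6.

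Ratios to Dct in the same sample show which genes varied in step with Dct and which did not. Tyrp1 kept a narrow range, 43.8 to 85.95 counts per 100 Dct counts over all 15 samples. Tyr did not. It stood at 26.4 counts per 100 Dct counts in acellular 15 mm replicate 1, 19.0 and 12.9 in acellular 10 mm replicates 3 and 1, 12.5 in HDB-MSCs 10 mm replicate 3, and 4.17 to 9.69 in the other 11 samples. The same 2 highest samples led for Slc45a2 (8.88 and 7.64) and Slc24a5 (13.9 and 8.64). Oca2 reached 11.8 per 100 Dct counts in acellular 15 mm replicate 1 and at most 2.25 elsewhere. Mitf ran the other way, with 10.1 counts per 100 Dct counts in acellular 15 mm replicate 1 and 200.9 in replicate 2 of the same group. Mlana was highest relative to Dct in normal 3, at 27.8.

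**Figure D4:**
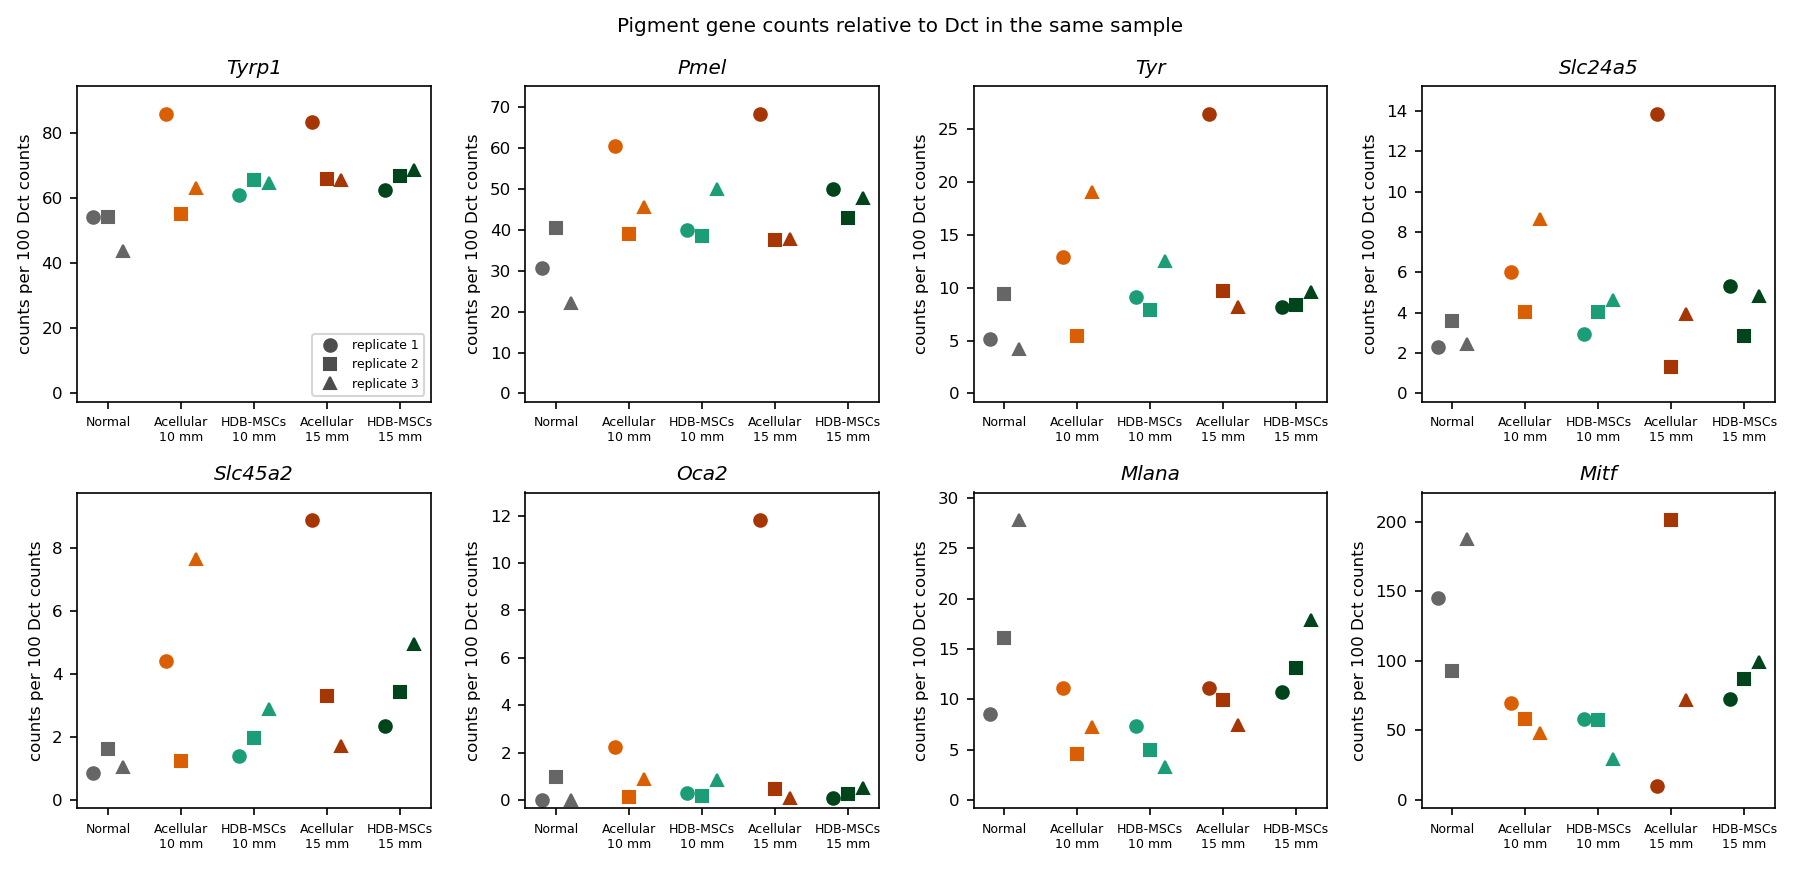
Counts of 8 pigment genes per 100 Dct counts in the same sample (y, linear axis) by group (x), with 1 point per sample shaped by replicate number. Acellular 15 mm replicate 1 is the highest point for Pmel, Tyr, Slc24a5, Slc45a2 and Oca2 (11.8 for Oca2) and the lowest for Mitf (10.1).

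Agreement between the genes was described by the correlation of log2 CPM with the mean of the other 9 over the 14 samples without acellular 15 mm replicate 1, as a description only, since these samples share groups and scaling. Tyr (0.961), Slc45a2 (0.937), Pmel (0.935), Tyrp1 (0.926), Slc24a5 (0.924) and Dct (0.894) followed the others closely. Gpr143 (0.773) and Oca2 (0.759), at few counts, followed less, and Mlana (0.547) and Mitf (0.535) least. Over all 15 samples Mlana gave 0.862 and Mitf 0.776, again the lowest of the 10. Outside the set, the genes most like the mean of the 10 over all 15 samples (Pearson r of log2 CPM) were Slc24a4 (0.965), Nup107 (0.96), Dph2 (0.959), Mcm7 (0.959), Skp2 (0.954), Lmnb2 (0.954), Trpm1 (0.949), Supt16, Tubb5 and Fanca (0.947 each). Over 14 samples these 10 kept r between 0.811 and 0.922, and Skp2, Slc24a4 and Dph2 were again among the 10 most alike. For Mitf the 5 most alike were Dvl2 (0.938), Fcsk (0.935), 5730507C01Rik (0.93), Smpd4 (0.909) and Isyna1 (0.907).

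Genes that specify and signal to melanocytes were less uniform. The counts for this and the following lists are given against normal skin in the order acellular 10 mm, acellular 15 mm, HDB-MSCs 10 mm and HDB-MSCs 15 mm. In that order 9.77%, 17.6%, 6.1% and 2.67% of all genes were called higher and 10.6%, 12.6%, 6.23% and 2.51% lower. Without acellular 15 mm replicate 1 the shares were 19.4%, 13.1%, 14.1% and 8.85% higher and 16.5%, 9.98%, 11.9% and 7.11% lower. Of 13 listed lineage and signalling genes, 11 were tested, with 3, 5, 3 and 3 called higher and 1, 0, 0 and 0 lower. Without the high sample the counts were 4, 3, 3 and 3 higher and 2, 1, 2 and 1 lower. None passed between HDB-MSCs and acellular groups. A set of 3 genes passed against normal in all 4 wound groups, with and without the high sample. Tfap2a, a transcription factor of neural crest and epidermis, rose by 1.32 to 1.82 on the log2 scale with all samples, Snai2, a zinc finger factor of neural crest and wound-edge keratinocytes, by 1.15 to 1.44, and Corin, a protease of the dermal papilla, by 2.45 to 4.28. Mc1r, the melanocortin receptor of melanocytes, passed with all samples in the acellular 15 mm group only (5.93 ± 1.95, adjusted p = 0.0381), with 34.4, 0.117 and 0.159 CPM in its 3 samples. Without the high sample Mc1r gave -0.37 there (adjusted p = 0.867) and passed in the acellular 10 mm group (3.46 ± 1.06, adjusted p = 0.0263). The acellular 10 mm samples measured 0.628, 0.225 and 5.38 CPM, against 0.211, 0.268 and 0.0671 CPM in normal skin. Pax3, a regulator of Mitf, passed in the acellular 15 mm group with all samples (1.18 ± 0.40, adjusted p = 0.0439) and not without the high one (0.73 ± 0.38, adjusted p = 0.175). Sox10, which marks melanocytes and Schwann cells, gave log2 fold changes of -0.28 to -0.09 in the 4 wound groups and passed in none. Kitl, the ligand of the Kit receptor on melanocytes, was highest of all samples in acellular 15 mm replicate 1, at 186 CPM. It fell by 1.30 in the acellular 10 mm group (adjusted p = 0.0446), the one group where it passed with all samples, and without the high sample it was called lower in all 4 groups, with log2 fold changes of -1.30 to -0.95.

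Melanosome biogenesis and transport was represented by 25 genes, all tested. With all samples 3, 8, 4 and 0 were called higher (9.77%, 17.6%, 6.1% and 2.67% of all genes) and 2, 2, 1 and 1 lower (10.6%, 12.6%, 6.23% and 2.51%). Without acellular 15 mm replicate 1 the counts were 5, 4, 7 and 1 higher and 2, 3, 3 and 2 lower. Trpm1, a channel made in melanocytes, gave 262 CPM in acellular 15 mm replicate 1 and 0.992 to 14.0 CPM in the other 14 samples. With all samples it passed in the acellular 15 mm group only (5.19 ± 1.59, adjusted p = 0.0296), where it gave -0.28 without the high one (adjusted p = 0.7995). Without the high sample Trpm1 passed in the acellular 10 mm group (1.78 ± 0.64, adjusted p = 0.0488). Mlph, which links melanosomes to the motor Myo5a, measured 41.6, 4.38 and 5.89 CPM in the acellular 15 mm group and 4.78, 4.75 and 3.29 CPM in normal skin. It passed in that group with all samples (2.02 ± 0.68, adjusted p = 0.0427) and not without the high one (0.27 ± 0.33, adjusted p = 0.5802). Gpnmb, a melanosomal glycoprotein that macrophages also make, passed in the acellular 15 mm group with all samples (2.89 ± 0.55, adjusted p = 0.00534) and without the high one (2.39 ± 0.54, adjusted p = 0.0118). In the HDB-MSCs 15 mm group it missed the threshold with all samples (1.90 ± 0.53, adjusted p = 0.0553) and passed without the high one (adjusted p = 0.0284). Dtnbp1, a subunit of a trafficking complex, fell in 3 of the 4 groups, with log2 fold changes of -0.48 to -0.57. In HDB-MSCs against acellular samples at 15 mm, Lyst and Atp7a were called lower (2.35% of all genes called lower), as they were without the high sample (adjusted p = 0.0365 for both, 0.818% of all genes) and with the replicate block (0.0398 and 0.0406). Neither was called in fits of these groups alone (0.4645 for both), with the transcript length correction (0.164 and 0.1496), or without HDB-MSCs 15 mm replicate 1 (0.0664 and 0.0708), replicate 2 (0.0538 and 0.05735) or replicate 3 (0.1284 for both), where 0% of all genes passed. The log2 fold changes of Lyst and Atp7a were -1.08 and -0.86 with all samples, and -1.09 and -0.87 in the fit of these groups alone. With the length correction they were -0.57 and -0.68. Without an HDB-MSCs 15 mm replicate they were -1.12 to -1.01 for Lyst and -0.93 to -0.81 for Atp7a. Cd63 had the highest mean level of the list and passed in no comparison. Over the mean of the 4 wound groups, 3 of the 25 were higher and 3 lower (14.2% of all genes higher and 16.7% lower), and 8 higher and 4 lower without the high sample (20.1% of all genes higher and 20.0% lower). In the family of Mitf, Tfeb fell in all 4 wound groups, with log2 fold changes of -0.81 to -1.13 and adjusted p from 0.00358 to 0.0342, Tfe3 rose in the acellular 15 mm group (0.42 ± 0.11, adjusted p = 0.0144, and 0.37 ± 0.11 with adjusted p = 0.0316 without the high sample), and Tfec passed in none.

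Of 5 lists of neighbouring cell types, hair shaft and matrix genes had their highest sum of all 15 samples in acellular 15 mm replicate 1. Schwann cell (314 CPM), follicle stem cell (1034 CPM) and macrophage genes (113.4 CPM) had their lowest sums there, and mast cell genes lay between. The 21 measured hair shaft and matrix genes, led by Tchh, summed to 26580 CPM in acellular 15 mm replicate 1, 2228 and 68.6 CPM in the other 2 samples of that group, 51.4 to 1836 CPM in the acellular 10 mm group, 72.0 to 92.0 CPM in the HDB-MSCs 10 mm group, 194 to 925 CPM in the HDB-MSCs 15 mm group and 28.6 to 32.5 CPM in normal skin. Krt25 and Krt83, keratins of the inner sheath and the shaft, had no count in any normal sample. Against normal skin 6, 20, 0 and 1 of these 21 genes were called higher, where 9.77%, 17.6%, 6.1% and 2.67% of all genes were. Without the high sample the counts were 16, 17, 0 and 4, with shares of all genes of 19.4%, 13.1%, 14.1% and 8.85%. The high hair and high pigment values coincided in acellular 15 mm replicate 1. Replicate 2 of that group had the second highest hair sum and the lowest pigment sum of any wound (113.8 CPM). HDB-MSCs 10 mm replicate 3 had the second highest pigment sum (361 CPM) with a hair sum of 92.0 CPM. Shh, a scarce gene of the hair list, was highest in acellular 15 mm replicate 1 (25.3 CPM), acellular 10 mm replicate 3 (21.75 CPM) and HDB-MSCs 10 mm replicate 3 (4.50 CPM). These were also the samples with the highest pigment sums, and Shh lay at 0.0531 to 0.937 CPM in the others. The part of follicle content in the pigment values was not tested.

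**Figure D5:**
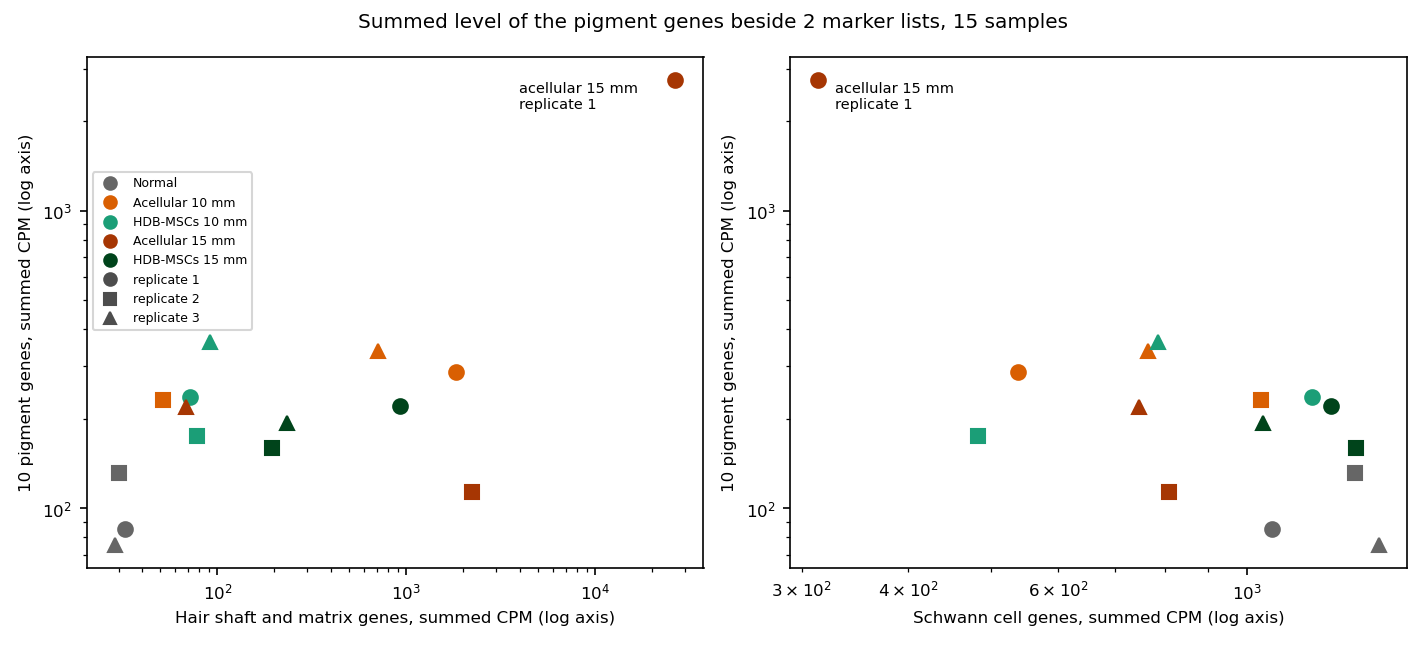
Summed CPM of the 10 pigment genes (y, log axis) against the summed CPM of the hair shaft and matrix genes (left, log axis) and of the Schwann cell genes (right, log axis), with 1 point per sample coloured by group and shaped by replicate number. Acellular 15 mm replicate 1 lies at 2741 CPM of pigment genes, with the highest hair sum (26580 CPM) and the lowest Schwann cell sum (314 CPM).

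Schwann cell genes, which share the neural crest origin of melanocytes, ran the other way in that sample. The 9 genes, led by Pmp22, summed to 314 CPM in acellular 15 mm replicate 1, the lowest of all samples, to 483 to 1342 CPM in the other wound samples and to 1071 to 1428 CPM in normal skin. With all samples 1 of the 9, Egr2, was called higher in each wound group, and Mbp and Pmp22 were called lower in the acellular 15 mm group (12.6% of all genes lower) but not without the high sample, when 3 (Mbp, Pmp22 and Prx) were called lower in the acellular 10 mm group (16.5%). Follicle stem cell genes, led by Krt15, summed to 1034 to 4699 CPM in wounds and 1921 to 2270 CPM in normal skin. Of 6 tested, 3, 3, 2 and 2 were called higher and 1, 1, 1 and 0 lower, against 9.77%, 17.6%, 6.1% and 2.67% of all genes higher and 10.6%, 12.6%, 6.23% and 2.51% lower. Without the high sample the counts were 4, 3, 2 and 2 higher and 1, 1, 1 and 0 lower. Lgr5 and Sox9 rose in all 4 wound groups, and Cd34 fell in all but the HDB-MSCs 15 mm group, with log2 fold changes of -1.57, -1.47 and -1.40. Mast cell genes, listed because mast cells also transcribe Mitf, summed to 37.3 to 191.9 CPM in wounds and 124 to 254 CPM in normal skin. These sums include Kit, a receptor of melanocytes as well as mast cells, which gave 79.3 CPM in acellular 15 mm replicate 1. Without Kit the other 7 genes summed to 21.03 CPM in that sample, 18.4 to 171.0 CPM in the other wounds and 110.4 to 233.8 CPM in normal skin. Of 8 tested, 4, 1, 1 and 0 were called lower, where 10.6%, 12.6%, 6.23% and 2.51% of all genes were. Fcer1a was called higher in the HDB-MSCs 10 mm group (3.18, adjusted p = 0.0486). It rests on few counts, at 0.067 to 0.134 CPM in normal skin and 0.296, 1.56 and 0.7775 CPM in that group. Without the high sample 4, 0, 2 and 0 were called lower, and Fcer1a was called higher in both HDB-MSCs groups. Macrophage genes, led by Lyz2, gave 4, 3, 2 and 0 of 6 genes called lower and none higher, against the same shares of all genes, and 4, 1, 3 and 1 lower without the high sample. The part of these marker levels in the pigment values was not tested.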

How the data were processed

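Skin mRNA was enriched with oligo(dT) and sequenced for 15 samples. The authors deposited 1 table of expected counts (estimated counts per gene, not normalized). The submitters' processing notes name HISAT2 2.0.4, Bowtie2 2.2.5, RSEM 1.2.12 and GRCm38.p6, with no role given. Here the expected counts were rounded. The table lists mouse genes, and whether reads of the implanted human cells entered it was not tested. The members and lists were chosen with earlier results of these data known.

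Tests were run with edgeR 4.0.16 (R 4.3.3) on TMM-scaled counts after filterByExpr. A quasi-likelihood model held the 5 group means, p-values were adjusted by the Benjamini-Hochberg method over the 15369 genes kept, and the threshold was 0.05. The procedure was also run on simulated negative binomial counts in which no sample stood apart from its group, unlike these data. Each SE is the absolute log2 fold change over the root of its F statistic, and 95% intervals used the matching t quantile. CPM and log2 CPM (prior count 2) shared the TMM scaling. CPM per kb used median GENCODE vM21 transcript lengths, matched for 96.4% of genes.

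Named genes were the 10 members, the most abundant gene of each other list, up to 3 called genes per list and comparison with the largest change, and the genes most alike. Pax3, Sox10, Tfec, Shh and the per-sample values of Mc1r, Kitl, Krt25, Krt83 and Fcer1a were added after the values were seen. Alternatives were DESeq2 1.42.0, no filter, fits of the compared groups alone, a replicate block, a transcript length correction, and leaving out each sample. Replicate numbers have no stated meaning. Between the 2 groups at 15 mm all 3 same-number correlations of deviations exceeded 0.1 (0.397, 0.167 and 0.183), which held for no other pair of groups. Single same-number correlations in the other pairs ran from -0.544 to 0.489, and no label gives a pairing. The replicate block gave each replicate number an effect shared by all 5 groups. It therefore also imposes the numbers where these correlations show no pairing, and is given as an alternative only.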

Additional observations from a re-analysis of the deposited data

How the results depend on the processing

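Depth differed little between samples, but Oca2, Gpr143 and Slc45a2 rest on few counts outside 1 sample, so their fold changes have wide errors. With 3 samples a group and 1 sample far from its group, counts of called pigment genes moved with most choices, and the cause was not tested beyond the values given. DESeq2 called 7 of the 10 genes lower in HDB-MSCs against acellular samples at 15 mm (10.7% of all genes), 1 (Gpr143) over both sizes (2.14%), 2 higher in the acellular 10 mm group against normal (14.7%) and 7 in the mean of the 4 wound groups (19.3%). Without the low-count filter 0 were called in the acellular 10 mm group against normal (6.94% of all genes higher). Fits of the compared groups alone called 7 (acellular 10 mm), 0 (acellular 15 mm), 4 (HDB-MSCs 10 mm) and 4 (HDB-MSCs 15 mm) against normal, where 20.2%, 2.91%, 10.6% and 11.6% of all genes were called higher. With the transcript length correction the acellular 10 mm count was 0 (9.33%). With the replicate block the acellular 15 mm count against normal was 2 (14.3%), and the log2 fold changes of Dct (HDB-MSCs against acellular, 10 mm) and Oca2 (HDB-MSCs 15 mm against normal) became -0.017 and -0.0913. Between the HDB-MSCs and acellular groups at 15 mm the replicate block called none of the 10 genes, as without it. Over all genes the calls went from 89 to 40 higher and from 361 to 139 lower. Length correction and replicate block together gave 0 (acellular 10 mm, 7.33%) and 2 (acellular 15 mm, 13.3%) called, with 0.00715 for Tyrp1 and 0.0003385 for Pmel at 10 mm and -0.10 for Oca2 in the HDB-MSCs 15 mm group. Mlana in the HDB-MSCs 10 mm group was 0.079 with the length correction alone.

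Leaving out each sample in turn, the counts called ranged from 0 to 8 (acellular 10 mm), 1 to 10 (acellular 15 mm), 0 to 5 (HDB-MSCs 10 mm), 0 to 2 (HDB-MSCs 15 mm) and 0 to 7 (mean of the 4 wound groups) against normal, and from 0 to 7 at 15 mm between HDB-MSCs and acellular samples. In the fits with the highest counts the shares of all genes called in that direction were 19.4%, 16.5% and 23.0% (both acellular 15 mm fits that called 10), 14.1%, 8.85%, 20.1% and 14.2% (both fits of the mean that called 7) and 11.6%. Log2 fold changes that turned sign ranged, at 10 mm, from -0.94 to 0.37 for Tyr, -0.44 to 0.16 for Tyrp1, -0.34 to 0.25 for Dct and -0.62 to 0.20 for Pmel. At 15 mm they ranged from -4.45 to 0.23 for Tyr, -3.25 to 0.21 for Tyrp1, -2.93 to 0.21 for Dct, -3.41 to 0.54 for Pmel, -2.59 to 0.96 for Mlana, -8.39 to 0.83 for Oca2, -4.18 to 0.91 for Slc45a2, -4.47 to 0.66 for Slc24a5 and -5.47 to 0.25 for Gpr143, and each upper value came without acellular 15 mm replicate 1. Against normal they ranged from -0.21 to 3.35 for Mlana and -0.65 to 12.1 for Oca2 (acellular 15 mm), from -0.40 to 0.27 for Mlana (HDB-MSCs 10 mm) and from -0.58 to 4.48 for Oca2 (HDB-MSCs 15 mm). The exact permutation p over both sizes ranged from 0.15 to 0.93 for Tyr, 0.085 to 0.755 for Tyrp1, 0.105 to 0.805 for Dct, 0.125 to 0.835 for Pmel, 0.165 to 0.75 for Mlana, 0.225 to 0.995 for Slc45a2 and 0.06 to 0.80 for Slc24a5, with a change of sign in each without acellular 15 mm replicate 1.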
